A study of Mus musculus with 2 samples.

Results

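The regions described here are 508 GC-rich, CpG-rich sites of open chromatin that lay away from annotated promoters in the left cerebral cortex of young mice. DNase-seq releases accessible DNA with DNase I and sequences it, and stretches where the cuts pile up into a peak are called DNase I hypersensitive sites (DHSs). The tissue came from 2 female mice aged 14 days, both first-generation hybrids of the inbred strains C57BL/6J and CAST/EiJ (B6CASTF1/J), with 1 library from each. The labels call them biological replicates 1 and 2, with an animal number each but a common donor record, and name no treatment. With 1 group there was nothing to test between conditions. Values are given for each library, means carry the SD between the libraries (n = 2), and regions are not replicates.

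Members were chosen from 78165 DHSs shared by both libraries, meaning merged stretches that contained at least 1 peak from each. Of these, 48172 were distal, with a midpoint over 2 kb from every transcription start site (TSS) in the GENCODE annotation of mm10. A distal DHS became a member when the 500 bp around its midpoint had a GC content of 60% or more and a CpG observed/expected ratio of 0.6 or more. That ratio compares the number of CG dinucleotides with the number that the C and G content alone would give. The 508 GC-rich distal DHSs were set against the 47664 other distal DHSs, and against 10773 CpG-rich promoter DHSs, which meet the same GC and CpG minima but lie within 1 kb of a TSS. A further set, the 514 GC-rich but CpG-poor distal DHSs, met the GC minimum and missed the CpG minimum, and is also counted within the other distal DHSs.

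CpG islands are stretches of vertebrate DNA that kept their CpG sites, whereas methylation and deamination of cytosine removed most CpG sites from the rest of the genome. Most islands lie at promoters, usually stay unmethylated, and are bound by proteins with CXXC domains, which recognise unmethylated CpG and bring histone-modifying enzymes. Islands away from annotated starts are called orphan CpG islands, and some of them are known to act as enhancers or as start sites of transcripts that the annotation lacks. Methylation was not measured here, so the regions resembled such islands in base composition and position alone.

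The rule fixed a minimum composition of the 500 bp around the midpoint, so the contrast there follows from the rule and is given as a description. The median GC content was 65.2% in GC-rich distal DHSs, against 47.0% in the other distal DHSs, and reached 80.4%. The median CpG ratio was 0.779, against 0.239, and the 500 bp held a median of 41 CpG sites, against 6. The DNA farther out was not part of the rule. Around a point 1500 bp to either side of the midpoint the median GC content was 48.7% beside GC-rich distal DHSs and 44.7% beside other distal DHSs, so the composition was local. The CpG-rich stretch around the midpoint overlaps the 500 bp of the rule, so its length is given as a description. A run of 200-bp windows with a GC content of at least 50% and a CpG ratio of at least 0.6 covered a median of 624 bp at members, and 370 of 508 (72.8%) had a run of 500 bp or more, the length often asked of a CpG island. Such runs had a median of 859 bp at CpG-rich promoter DHSs, and were present at 500 bp or more in 0.191% of the other distal DHSs.

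**Figure D1:**
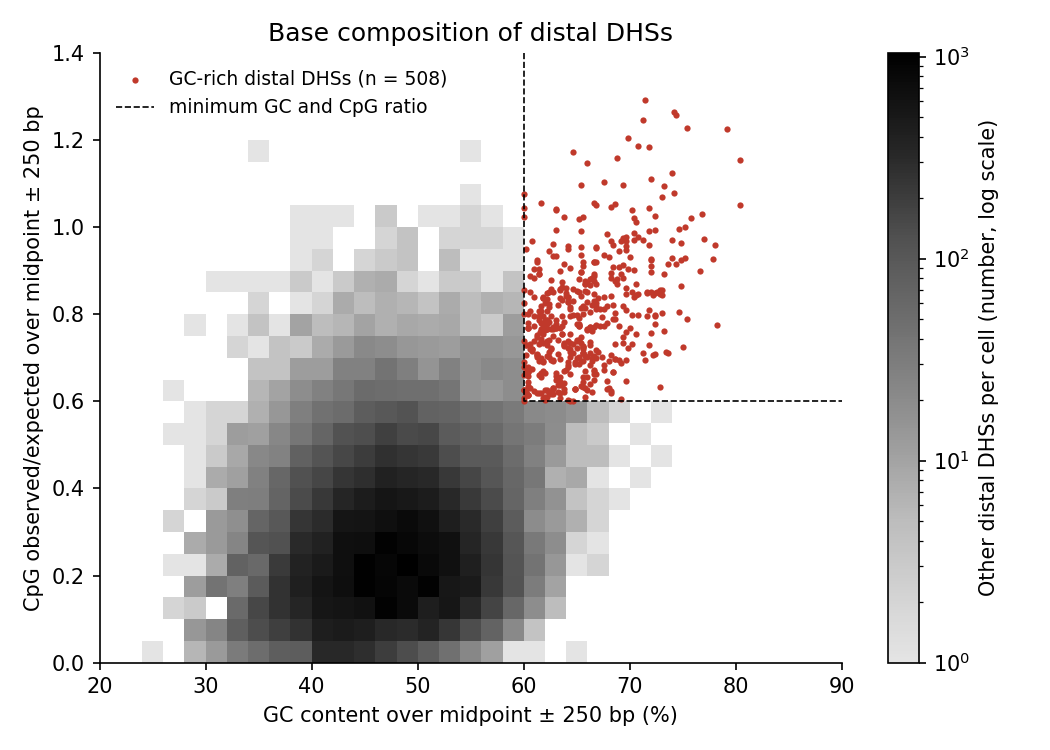
GC content (x axis, percent) against CpG observed/expected ratio (y axis), both over the 500 bp around the midpoint, for the 508 GC-rich distal DHSs (red points, 1 each) and the 47664 other distal DHSs (grey cells, darker for more DHSs, log scale). The dashed lines mark the minima of 60% and 0.6. The members fill the sparse upper right corner, up to a GC content of 80.4% and a ratio of 1.29, while the other distal DHSs crowd around 47.0% and 0.239.

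The sequences of 8 members are given to show what such a region looks like at base level. They are 5 of the 6 members with the highest mean signal among intronic and intergenic ones at most 300 bp wide, the strongest with a CTCF and the strongest with a CRE motif inside footprints of both libraries, and the strongest in a coding exon. A footprint is a short stretch inside a DHS with fewer cuts than its surroundings, as deposited by the authors. It is read as DNA shielded from DNase I, which was not tested here. Bases inside a footprint of both libraries are in capitals and the others in lower case, on the plus strand of mm10 (GRCm38), 5′ to 3′.
chr8:70865661-70865920, intergenic, 2533 bp from the nearest annotated start of Kcnn1: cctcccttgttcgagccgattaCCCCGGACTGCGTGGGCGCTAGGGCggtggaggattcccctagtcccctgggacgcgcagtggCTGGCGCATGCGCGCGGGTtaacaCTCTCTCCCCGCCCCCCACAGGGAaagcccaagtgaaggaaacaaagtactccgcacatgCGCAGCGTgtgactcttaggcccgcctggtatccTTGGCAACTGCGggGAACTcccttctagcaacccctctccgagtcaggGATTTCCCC
chr7:27361441-27361660, in an intron of Sptbn4: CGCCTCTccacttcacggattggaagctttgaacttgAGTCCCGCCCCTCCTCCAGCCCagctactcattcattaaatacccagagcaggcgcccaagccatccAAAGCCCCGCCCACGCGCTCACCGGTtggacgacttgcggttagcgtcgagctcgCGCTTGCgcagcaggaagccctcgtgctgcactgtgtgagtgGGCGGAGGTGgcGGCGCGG
chr8:121585441-121585700, in an intron of Gm20388, 4790 bp from Map1lc3b: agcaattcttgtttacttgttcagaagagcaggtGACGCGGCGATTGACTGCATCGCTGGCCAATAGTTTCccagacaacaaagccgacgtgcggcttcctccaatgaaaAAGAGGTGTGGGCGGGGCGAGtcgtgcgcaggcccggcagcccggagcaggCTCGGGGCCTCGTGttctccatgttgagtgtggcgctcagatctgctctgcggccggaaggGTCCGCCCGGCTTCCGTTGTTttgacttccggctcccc
chr4:143162121-143162360, in an intron of Prdm2: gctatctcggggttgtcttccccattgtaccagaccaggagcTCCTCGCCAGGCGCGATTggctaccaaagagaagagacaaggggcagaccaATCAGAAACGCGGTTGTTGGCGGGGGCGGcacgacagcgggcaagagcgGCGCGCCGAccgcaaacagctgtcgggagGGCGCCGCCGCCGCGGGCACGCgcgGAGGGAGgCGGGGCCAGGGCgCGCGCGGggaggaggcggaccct
chr5:142367301-142367580, intergenic, 34056 bp from Foxk1: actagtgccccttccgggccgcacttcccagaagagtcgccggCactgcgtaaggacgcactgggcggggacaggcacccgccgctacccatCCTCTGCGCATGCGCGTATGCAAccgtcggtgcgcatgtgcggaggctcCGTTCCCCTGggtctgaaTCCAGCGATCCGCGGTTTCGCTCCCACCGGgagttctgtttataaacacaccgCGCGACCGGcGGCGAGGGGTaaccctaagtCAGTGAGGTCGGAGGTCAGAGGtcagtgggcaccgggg
chr7:73618401-73618660, intergenic, 76701 bp from Chd2: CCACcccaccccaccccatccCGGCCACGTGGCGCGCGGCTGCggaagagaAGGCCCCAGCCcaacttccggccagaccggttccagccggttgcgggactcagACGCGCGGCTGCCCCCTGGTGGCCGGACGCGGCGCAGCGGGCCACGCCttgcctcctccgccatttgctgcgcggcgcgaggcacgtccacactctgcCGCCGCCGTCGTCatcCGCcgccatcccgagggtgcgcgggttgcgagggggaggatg
chr1:86434461-86434680, intergenic, 8242 bp from Tex44: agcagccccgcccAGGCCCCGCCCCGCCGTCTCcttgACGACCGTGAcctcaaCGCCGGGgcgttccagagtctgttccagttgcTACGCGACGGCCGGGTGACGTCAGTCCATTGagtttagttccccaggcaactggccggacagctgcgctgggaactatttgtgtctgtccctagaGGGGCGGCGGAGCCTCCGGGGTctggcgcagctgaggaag
chr14:20661061-20661280, in a coding exon of Synpo2l: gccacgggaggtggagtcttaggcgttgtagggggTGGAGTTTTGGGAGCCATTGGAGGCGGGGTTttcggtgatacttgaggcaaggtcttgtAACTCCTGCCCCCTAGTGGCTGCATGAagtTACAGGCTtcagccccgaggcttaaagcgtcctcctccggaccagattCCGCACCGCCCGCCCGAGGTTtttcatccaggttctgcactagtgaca
In these 8 regions between 79 and 105 bases were in footprints of both libraries. The capitals held whole matches to NRF1, SP/KLF, EGR, CTCF and CRE motifs, whose letters are given with the motif counts.

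The region near Kcnn1, which encodes a small-conductance calcium-activated potassium channel, had a signal of 8.82 in replicate 1 and 7.56 in replicate 2. Its capitals held 2 overlapping NRF1 matches at positions 89 to 98, counted from 1 at the left end, an EGR match at positions 32 to 40 and an SP/KLF match at positions 118 to 123. The region near Foxk1, a forkhead transcription factor gene, had a signal of 7.89 in replicate 1 and 4.87 in replicate 2, and also had an overlapping pair of NRF1 matches in capitals, at positions 98 to 107. The intronic region of Sptbn4, which encodes a spectrin of axon initial segments and nodes of Ranvier, had 7.57 in replicate 1 and 8.22 in replicate 2. There an SP/KLF and an EGR match overlapped at positions 111 to 120, all in capitals. The region 76701 bp from Chd2, a chromatin remodeller gene, had 8.01 in replicate 1 and 4.63 in replicate 2, and a CTCF match at positions 115 to 126. The region near Tex44 had 6.60 in replicate 1 and 5.63 in replicate 2, with a CRE match at positions 101 to 108. The exonic region of Synpo2l had 4.01 in replicate 1 and 4.26 in replicate 2, and a CTCF match at positions 102 to 113. A motif match describes letters and does not show which protein was there.

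The median signal of GC-rich distal DHSs was higher than that of other distal DHSs, and lower than that of CpG-rich promoter DHSs. The signal is the highest deposited peak signal in the region, for which no unit is stated, so levels were compared within a library. Median GC content was 65.2% in members and 47.0% in other distal DHSs, and its part in the signal was not tested. The median was 1.12 in replicate 1 and 0.981 in replicate 2 at GC-rich distal DHSs, against 0.640 in replicate 1 and 0.727 in replicate 2 at the other distal DHSs. The ratio of these medians was 1.75 in replicate 1 and 1.35 in replicate 2, a mean of 1.55 ± 0.281 (SD, n = 2), so both libraries gave the same direction with different sizes. Of the 508 members, 402 (79.1%) in replicate 1 and 343 (67.5%) in replicate 2 lay above the median of all distal DHSs. Of these, 148 (29.1% of 508) in replicate 1 and 140 (27.6% of 508) in replicate 2 exceeded the level that 10% of all distal DHSs exceed. Against CpG-rich promoter DHSs, with medians of 1.76 in replicate 1 and 1.42 in replicate 2, the ratio was 0.662 ± 0.0374 (SD, n = 2).

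Set against distal DHSs that were GC-rich but CpG-poor, the difference was smaller and depended on the library. Those had a median of 0.917 in replicate 1 and 0.968 in replicate 2, which put the ratio at 1.22 in replicate 1 and 1.01 in replicate 2. The mean of 1.12 ± 0.145 (SD, n = 2) did not separate the medians of the 2 sets beyond the spread between libraries. The upper parts of the distributions stood farther apart. The level that 10% of regions exceed was 3.92 in replicate 1 and 3.71 in replicate 2 for GC-rich distal DHSs, against 2.03 in replicate 1 and 2.16 in replicate 2 for the CpG-poor ones. In the other distal DHSs it was 1.75 in replicate 1 and 1.65 in replicate 2. GC content was not matched, with a median of 65.2% in GC-rich distal DHSs and 61.4% in the CpG-poor ones.

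**Figure D2:**
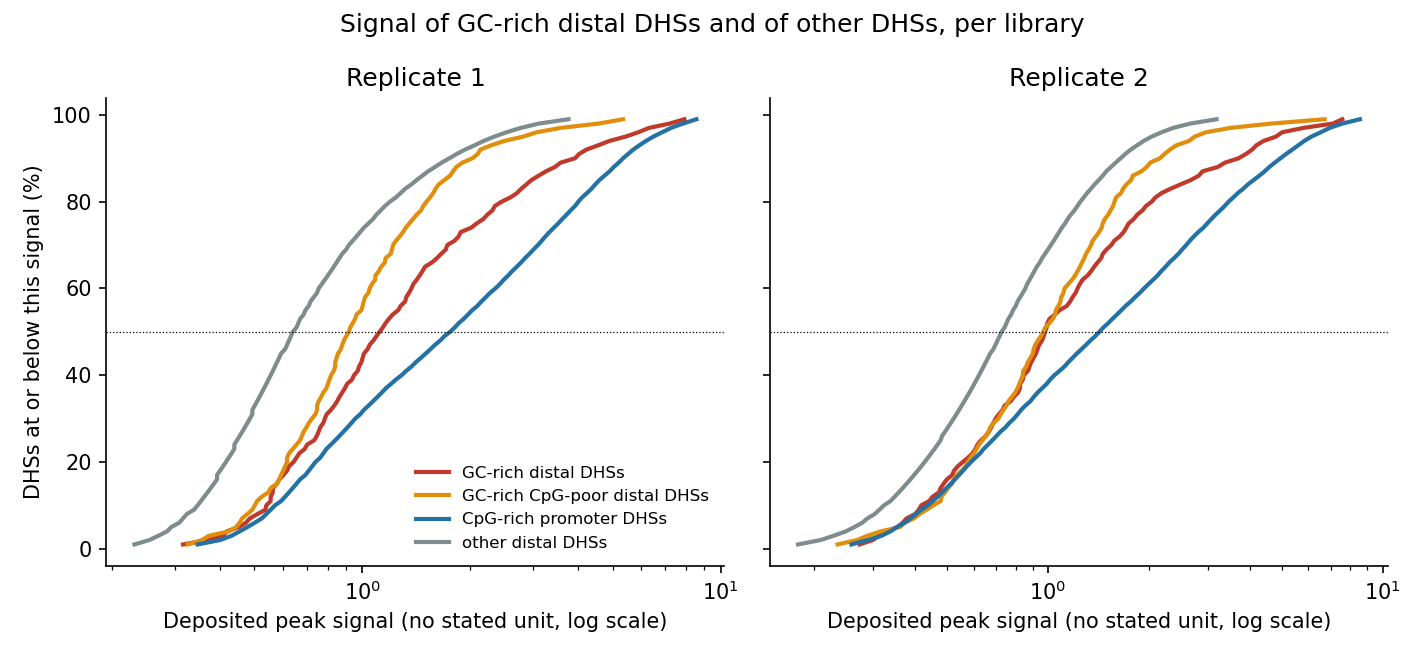
Cumulative distribution of the deposited peak signal (x axis, no stated unit, log scale) in replicate 1 (left) and replicate 2 (right), with the percent of DHSs at or below each signal on the y axis. The dotted line marks the median, where GC-rich distal DHSs (red) sit at 1.12 and 0.981, right of the other distal DHSs (grey) at 0.640 and 0.727 and left of CpG-rich promoter DHSs (blue) at 1.76 and 1.42. The GC-rich CpG-poor distal DHSs (orange) run with the members below the median of replicate 2 and fall behind them above it.

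The open stretch was also longer. The median width of the DHS was 280 bp in GC-rich distal DHSs, against 220 bp in the other distal DHSs. The authors also deposited genome segments where the local cleavage rate passed a false discovery rate of 0.05. The unbroken segment around a member's midpoint had a median length of 401 bp in replicate 1 and 526 bp in replicate 2, against 219 bp in replicate 1 and 321 bp in replicate 2 around other distal DHSs. That is a ratio of 1.73 ± 0.136 (SD, n = 2). CpG-rich promoters had longer segments, with medians of 724 bp in replicate 1 and 821 bp in replicate 2. CpG sites fell off faster from the midpoint in members than at promoters. At the midpoint there were 10.4 CpG sites per 100 bp in members, 10.5 at CpG-rich promoter DHSs and 1.90 at other distal DHSs. At 500 bp to the right the values were 3.40, 5.48 and 1.09.

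**Figure D3:**
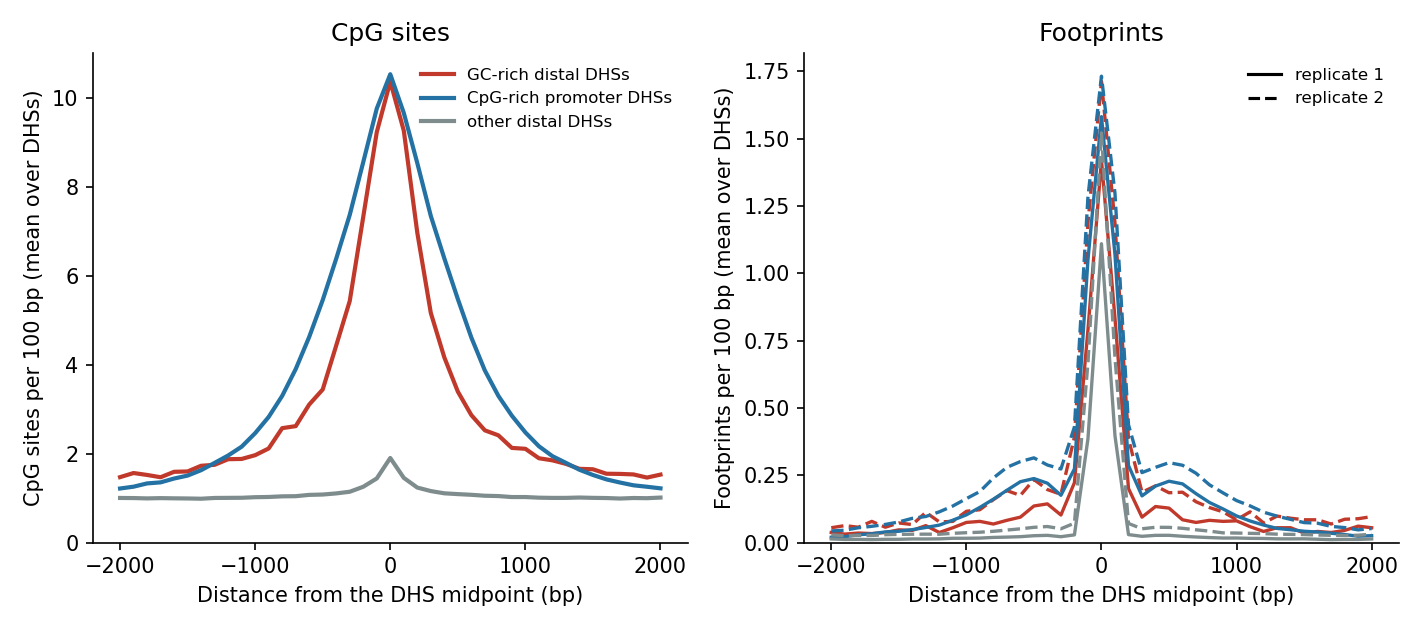
Mean number of CpG sites per 100 bp (left) and of deposited footprints per 100 bp (right, replicate 1 solid, replicate 2 dashed) against the distance from the DHS midpoint in bp, for GC-rich distal DHSs (red), CpG-rich promoter DHSs (blue) and other distal DHSs (grey). Members reach 10.4 CpG sites per 100 bp at the midpoint, close to the 10.5 of promoters, and have a narrower peak, with 3.40 against 5.48 at 500 bp to the right.

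Members lay closer to genes than other distal DHSs and were found in coding exons far more often. Their median distance to the nearest annotated TSS was 7508 bp, against 15168 bp for the other distal DHSs. Of the 508, 188 (37.0%) lay between 2 and 5 kb away, against 17.8% of the other distal DHSs. The GC-rich CpG-poor DHSs were nearly as close, with a median of 8796 bp and 30.4% between 2 and 5 kb away. By the place of the midpoint, 125 members (24.6%, 95% Wilson interval 21.1 to 28.5) were in a coding exon, against 1.43% of the other distal DHSs and 9.92% of the GC-rich CpG-poor ones. Another 101 (19.9%) were in introns, against 47.6%, and 261 (51.4%) were intergenic, against 47.9%. There were 11 members in 3′ untranslated regions, 8 in non-coding exons and 2 in 5′ untranslated regions. Wilson intervals cover counting error alone.

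The exonic members were mostly in long last exons. Of the 125, 95 (76.0%) were in the last exon of the transcript with the longest coding sequence at that place and 108 (86.4%) were in an exon of over 500 bp, with a median exon length of 1422 bp. They fell in 110 genes. The only exon of a single-exon gene counted as its last. These shares were not counted for other distal DHSs in coding exons, so whether they are particular to members is not known. The 5 members with the highest CpG ratio of all 508 were all in coding exons. The highest, with a ratio of 1.29 and 82 CpG sites in 500 bp, was chr7:127254041-127254420 in exon 3 of 3 of Zfp771, a zinc finger gene, with a signal of 4.15 in replicate 1 and 3.96 in replicate 2. The next were in the last exons of C1qtnf4, which encodes a secreted C1q-related protein, and Snx20, a sorting nexin gene. They were followed by exon 2 of 13 of Apba1, which encodes the synaptic adaptor Mint1, and the last exon of Prdm12, a regulator of sensory neuron development. The signals of these 4 ran between 0.894 and 2.02 in replicate 1 and between 0.732 and 1.64 in replicate 2, below that at Zfp771. Across the 508 members the rank correlation of the CpG ratio with the signal was 0.0455 in replicate 1 and 0.0565 in replicate 2, and that of GC content was -0.0637 in replicate 1 and -0.0422 in replicate 2. The points share a library and regions are not independent.

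Coding-exon members had a lower median signal than intergenic ones, and both were above their like among the other distal DHSs. The median signal in coding exons was 0.902 in replicate 1 and 0.831 in replicate 2 for members, against 0.640 in replicate 1 and 0.672 in replicate 2 for other distal DHSs in coding exons. For intergenic members it was 1.32 in replicate 1 and 1.15 in replicate 2, against 0.624 in replicate 1 and 0.697 in replicate 2. Intronic members had 1.12 in replicate 1 and 0.991 in replicate 2, against 0.655 in replicate 1 and 0.752 in replicate 2. Among other distal DHSs the median signal was higher closer to a start site, so the medians were also taken by distance. Across members the rank correlation of that distance with the signal was -0.0596 in replicate 1 and -0.0450 in replicate 2. Between 2 and 5 kb the ratio of members to other distal DHSs was 1.37 in replicate 1 and 1.12 in replicate 2. Between 5 and 10 kb it was 1.84 in replicate 1 and 1.52 in replicate 2. Between 10 and 50 kb it was 1.73 in replicate 1 and 1.37 in replicate 2. The 18 members farther than 50 kb had a ratio of 1.44 in replicate 1 and 1.30 in replicate 2.

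Many members that GENCODE placed far from a start were close to a transcript start in a second annotation. In RefSeq on the same build, 102 of 508 GC-rich distal DHSs (20.1%, 95% Wilson interval 16.8 to 23.8) had a midpoint within 1 kb of a transcript start, against 3.54% (3.38 to 3.71) of the other distal DHSs and 9.73% (7.46 to 12.6) of the GC-rich CpG-poor ones. Predicted transcripts supplied 77 of the 102. The other 25 starts, counted as curated, were those not marked as predicted, and they include the starts of 4 tRNA genes. The share was 24.9% of intergenic members (65 of 261) and 27.7% of intronic ones (28 of 101), and 4.8% of those in coding exons (6 of 125). The region near Kcnn1 whose sequence is given lay 100 bp from a predicted Kcnn1 start, and the one in Prdm2, which encodes a histone methyltransferase, 89 bp from a predicted Prdm2 start. A member in an intron of Kdm6b, which encodes an H3K27 demethylase, lay 61 bp from a predicted start of that gene and had a signal of 4.26 in replicate 1 and 4.13 in replicate 2. The 102 members near a RefSeq start had a median signal of 1.25 in replicate 1 and 1.03 in replicate 2, and the other 406 had 1.09 in replicate 1 and 0.971 in replicate 2. The higher signal relative to other distal DHSs was thus also present in members with no RefSeq start within 1 kb. Whether any of these regions was transcribed was not measured.

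A few members overlapped tRNA genes, which RNA polymerase III transcribes. The 4 that overlapped a tRNA gene (0.787%, against 0.285% of the other distal DHSs) all had higher signals in replicate 1. Members as a whole leaned the same way, with a median log2 ratio of replicate 1 to replicate 2 of 0.21. The member at the proline tRNA gene n-TPcgg2 had 3.04 in replicate 1 and 1.52 in replicate 2. The threonine tRNA gene n-TTcgt5 had 6.74 in replicate 1 and 4.02 in replicate 2. The isoleucine tRNA gene n-TIaat17 had 6.31 in replicate 1 and 3.37 in replicate 2, and the asparagine tRNA gene n-TNgtt14 had 5.12 in replicate 1 and 3.03 in replicate 2. All 4 lay above the median of the members in both libraries.

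None of the 10 members with the highest mean signal was in a coding exon. The highest was chr6:86472201-86472480 in a non-coding exon of C87436, with a signal of 10.4 in replicate 1 and 8.12 in replicate 2. It was followed by chr2:30658501-30658720 in a non-coding exon of the long non-coding RNA gene Gm14486, with 9.38 in replicate 1 and 8.25 in replicate 2. The intergenic chr1:86487401-86487780 had 9.42 in replicate 1 and 7.34 in replicate 2. These top members reached the range of strong promoters, since 10% of CpG-rich promoter DHSs exceeded 5.34 in replicate 1 and 4.95 in replicate 2. The list also held chr15:73067421-73067840, 6427 bp from Trappc9, which is imprinted in mouse brain, with 7.18 in replicate 1 and 8.01 in replicate 2. Another was chr10:80159801-80160120, 6024 bp from Cirbp, which encodes a cold-inducible RNA-binding protein, with 7.36 in replicate 1 and 7.17 in replicate 2. Another 4, near Kcnn1 and in introns of Sptbn4, Gm20388 and Prdm2, are among those whose sequences are given. At the other end the weakest members had 0.247 in replicate 1 and 0.129 in replicate 2, so the range was 42.3-fold in replicate 1 and 63.7-fold in replicate 2.

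Several genes held or neighboured more than 1 member. Of the 508, 215 lay in the body of 182 protein-coding genes, 28 of which held 2 or more. The most were in Bcor, which encodes a subunit of a variant Polycomb complex, and in Gm20388, with 4 each. Bcor was also the nearest protein-coding gene of 7 members. The 4 inside Bcor were weak, with signals between 0.555 and 0.986 in replicate 1 and between 0.448 and 0.876 in replicate 2, and 1 of them had no footprint in either library. The other 3 members in Gm20388 had 0.616 to 1.04 in replicate 1 and 0.523 to 0.981 in replicate 2, far below the one whose sequence is given. Sptbn4 held 3, of which the intronic one whose sequence is given was far above the exonic ones, with 0.879 and 0.794 in replicate 1 and 0.687 and 0.757 in replicate 2. The single-exon gene Adra2c, an adrenergic receptor gene, held 2, with 0.755 and 0.416 in replicate 1 and 0.607 and 0.309 in replicate 2. B3gnt6, a glycosyltransferase gene, held 2 in its last exon with 0.601 and 0.478 in replicate 1 and 0.418 and 0.498 in replicate 2. In all, 112 members had another member within 5 kb, in 53 groups of at most 4.

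Members near genes of 5 lists were counted, where near means inside the gene or with one of its start sites as the closest protein-coding start. The lists were chosen with earlier results of these data known, so the shares are descriptions. The list of 77 developmental transcription factor genes had 15 members (2.95% of 508), against 0.764% of the other distal DHSs. These were weak, with a median signal of 0.670 in replicate 1 and 0.513 in replicate 2. The strongest were near Bcl11b, a regulator of deep-layer cortical neurons, with 1.37 in replicate 1 and 1.18 in replicate 2, and near Neurod2, with 1.14 in replicate 1 and 1.18 in replicate 2. The 40 chromatin and DNA methylation genes had 10 members (1.97%, against 0.487%), which lay near 5 of these genes. The strongest was near Cbx8, a Polycomb gene, with 3.58 in replicate 1 and 3.23 in replicate 2. The next was nearest to Arid1b, a gene of the BAF remodelling complex, with 2.77 in replicate 1 and 2.48 in replicate 2. The list of 30 signalling and growth factor genes, which also holds transcription factor genes such as Nfix, had 9 members (1.77%, against 0.625%). The strongest there was 52208 bp from Wnt7b, with 5.86 in replicate 1 and 6.47 in replicate 2, followed by one 10727 bp from Nfix, which encodes a nuclear factor I transcription factor, with 5.52 in replicate 1 and 4.78 in replicate 2.

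The 45 synaptic scaffold and channel genes had 10 members (1.97%, against 1.01%). The strongest lay in an intron of Dlg4, which encodes the postsynaptic scaffold PSD-95, with 4.97 in replicate 1 and 5.62 in replicate 2. The next lay in a coding exon of 1700008O03Rik, 9429 bp from Shank1, another postsynaptic scaffold gene, with 3.91 in replicate 1 and 3.71 in replicate 2. The 38 imprinted genes had 3 members (0.591%, 95% Wilson interval 0.201 to 1.72, against 0.222%), an interval that includes the share of the other distal DHSs. They included the region near Trappc9 and one in the 3′ untranslated region of H13, with 1.29 in replicate 1 and 1.15 in replicate 2. Members lay closer to genes than other distal DHSs, and the part of that distance in these shares was not tested.

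Footprints were present in nearly all members. At least 1 lay in 469 of 508 members (92.3%, 95% Wilson interval 89.7 to 94.3) in replicate 1, where 84.1% of all shared DHSs had one, and in 491 (96.7%, 94.7 to 97.9) in replicate 2, where 93.5% did. Both libraries had a footprint in 459 members, and 7 had none in either. Among the other distal DHSs the share was 82.6% in replicate 1 and 94.9% in replicate 2, so the gap was wide in replicate 1 and narrow in replicate 2. Footprints per 100 bp of DHS numbered 1.03 in replicate 1 and 1.38 in replicate 2 for members, against 0.785 in replicate 1 and 1.19 in replicate 2 for other distal DHSs. Signal and width move with footprint calls. Within 10 bins of signal and 5 of width, other distal DHSs had a footprint in 94.0% in replicate 1 and 97.4% in replicate 2 when weighted as the members, so the higher share was not present at like signal and width. The mean number of footprints at like signal and width was 3.32 in members and 2.97 in the others in replicate 1, and 4.45 and 3.71 in replicate 2.

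The most footprints over both libraries were in wide members. A 980-bp intergenic member 24513 bp from Calcoco1, chr15:102746201-102747180, had 11 in replicate 1 and 13 in replicate 2, at a signal of 1.28 in replicate 1 and 1.45 in replicate 2, and lay 218 bp from a curated RefSeq start of Cistr. A 1400-bp member in an intron of the non-coding gene Lncppara had 7 in replicate 1 and 16 in replicate 2. A 1300-bp member in an intron of 1700086O06Rik had 8 in replicate 1 and 12 in replicate 2. A narrower one of 340 bp, 5241 bp from the receptor gene Gpr84, had 9 in replicate 1 and 10 in replicate 2 and was strong, at 5.83 in replicate 1 and 7.31 in replicate 2. A member of 540 bp that GENCODE placed 66130 bp from any start lay 6 bp from a predicted RefSeq start of Tln2, which encodes a talin, and had 7 footprints in replicate 1 and 13 in replicate 2.

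Motifs rich in CpG were more frequent in members than in other distal DHSs. Matches were sought on both strands in the 300 bp around the midpoint. The GC box GGGCGG, bound by SP and KLF factors, was present in 64.6% of members (95% Wilson interval 60.3 to 68.6), against 8.94% of other distal DHSs, 44.4% of GC-rich CpG-poor ones and 77.1% of CpG-rich promoter DHSs. GCGCANGCG, bound by NRF1, a methylation-sensitive activator of housekeeping genes, was in 10.04% of members, against 0.579% of other distal DHSs, 3.11% of GC-rich CpG-poor ones and 15.1% of CpG-rich promoters. GCGTGGGCG, the motif of EGR factors, which neuronal activity induces, was in 4.13% of members (2.72 to 6.24), against 0.191% of other distal DHSs, 0.389% of GC-rich CpG-poor ones and 1.87% of CpG-rich promoters. TTTNGCGC, bound by E2F factors of the cell cycle, was in 3.94% of members (2.56 to 6.00), against 0.762% of other distal DHSs, 0.195% of GC-rich CpG-poor ones and 2.497% of CpG-rich promoters. GC boxes and NRF1 motifs were thus less frequent in members than at CpG-rich promoters, and the EGR motif more frequent.

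The CTCF, E-box and AP-1 motifs were less frequent in members than in other distal DHSs. The CTCF motif was in 2.95% of members (1.80 to 4.81), against 9.33% of other distal DHSs, 2.72% of GC-rich CpG-poor ones and 0.724% of CpG-rich promoters, and CTCF is the protein of insulators and loop anchors. The E-box CAGATG, bound by neurogenic factors such as NEUROD proteins, was in 13.6% of members, against 32.2% of other distal DHSs, 26.8% of GC-rich CpG-poor ones and 8.33% of CpG-rich promoters. TGANTCA, bound by the activity-regulated AP-1 complex, was in 3.94% of members, against 13.8% of other distal DHSs, 7.78% of GC-rich CpG-poor ones and 2.68% of CpG-rich promoters. The CTCF share of the members was thus close to that of the GC-rich CpG-poor DHSs. Base composition alone changes how often such letters occur, and its part was not tested. TGACGTCA, the cyclic AMP response element (CRE), was in 8 members (1.57%), against 0.493% of other distal DHSs and 3.20% of CpG-rich promoters. CCGGAAGT of ETS factors was in 2.56% of members, against 0.384% of other distal DHSs and 6.09% of CpG-rich promoters. AANATGGCG of YY1 was in 1.77% of members, against 0.539% of other distal DHSs and 4.98% of CpG-rich promoters. These motifs were thus less frequent in members than at promoters. The NFI motif was in 0.591% of members, against 1.48% of other distal DHSs and 0.325% of CpG-rich promoters. The letters of the REST and RFX motifs were found in none of the 508 windows, against 0.00629% and 0.250% of other distal DHSs. At shares this low, absence from 508 windows shows little about the members.

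Matches to CTCF, EGR, CRE, NRF1 and SP/KLF motifs lay inside footprints more often than other windows of the same DHSs, and E-box matches less often. A match counted as held when it lay wholly inside a footprint, and was set against the share of all windows of that width in the same DHSs that lay wholly inside one. Those windows were not matched for base composition, and its part in the held shares was not tested. CTCF matches were held in 11 of 17 cases in replicate 1 (64.7%, against 3.77% of all windows) and 14 of 17 in replicate 2 (82.4%, against 6.61%). EGR matches were held in 8 of 21 cases in replicate 1 (38.1%, against 5.41%) and 18 of 21 in replicate 2 (85.7%, against 9.14%). CRE matches were held in 6 of 12 cases in both libraries, against 6.17% of windows in replicate 1 and 10.2% in replicate 2. For these 3 motifs the share was many times that of all windows in both libraries, from few matches.

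NRF1 matches were held in 19 of 77 cases in replicate 1 (24.7%) and 40 of 77 in replicate 2 (51.9%), which was 4.56 times the share of all windows in replicate 1 and 5.68 times in replicate 2. The palindromic form counts as 2 overlapping matches, as in the regions near Kcnn1 and Foxk1. SP/KLF matches were held in 158 of 672 cases in replicate 1 (23.5%) and 254 in replicate 2 (37.8%), which was 2.86 times the share of windows in replicate 1 and 2.92 times in replicate 2. Of the 21 EGR matches, 11 overlapped an SP/KLF match. E-box matches were held in 1 of 93 cases in replicate 1 (1.08%, against 8.22% of windows) and 2 in replicate 2 (2.15%, against 12.9%). None of the 25 AP-1 matches was held in either library, against 7.20% of windows in replicate 1 and 11.6% in replicate 2. With 1 base inside a footprint as the criterion, AP-1 matches reached 4.0% in replicate 1 (1 of 25, against 19.4% of windows) and 24.0% in replicate 2 (6 of 25, against 27.6%), so the gap in replicate 2 rested on the criterion and on few matches. In other distal DHSs the held share of E-box matches was 11.1% in replicate 1 and 14.0% in replicate 2, which was 1.69 times that of windows in replicate 1 and 1.31 times in replicate 2. AP-1 matches there were held in 3.18% of cases in replicate 1 and 4.92% in replicate 2, against 5.77% and 9.48% of windows. At CpG-rich promoter DHSs the E-box ratio to windows was 0.604 in replicate 1 and 0.647 in replicate 2. The AP-1 ratio there was 0.0642 in replicate 1 and 0.159 in replicate 2, so low held shares were not particular to members. In other distal DHSs the CTCF, NRF1 and SP/KLF ratios exceeded those of members in both libraries. For NRF1 the ratio was 7.07 in replicate 1 and 7.15 in replicate 2. The EGR and CRE ratios were below those of members in replicate 1 and above them in replicate 2.

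The remaining motifs gave few matches or differing libraries. ETS matches were held in 4 of 14 cases in replicate 1 and 1 in replicate 2, YY1 matches in 2 of 11 in each, and E2F matches in 1 of 20 in replicate 1 and 6 in replicate 2. The 3 NFI matches were held once in replicate 1 and in 2 cases in replicate 2.

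**Figure D4:**
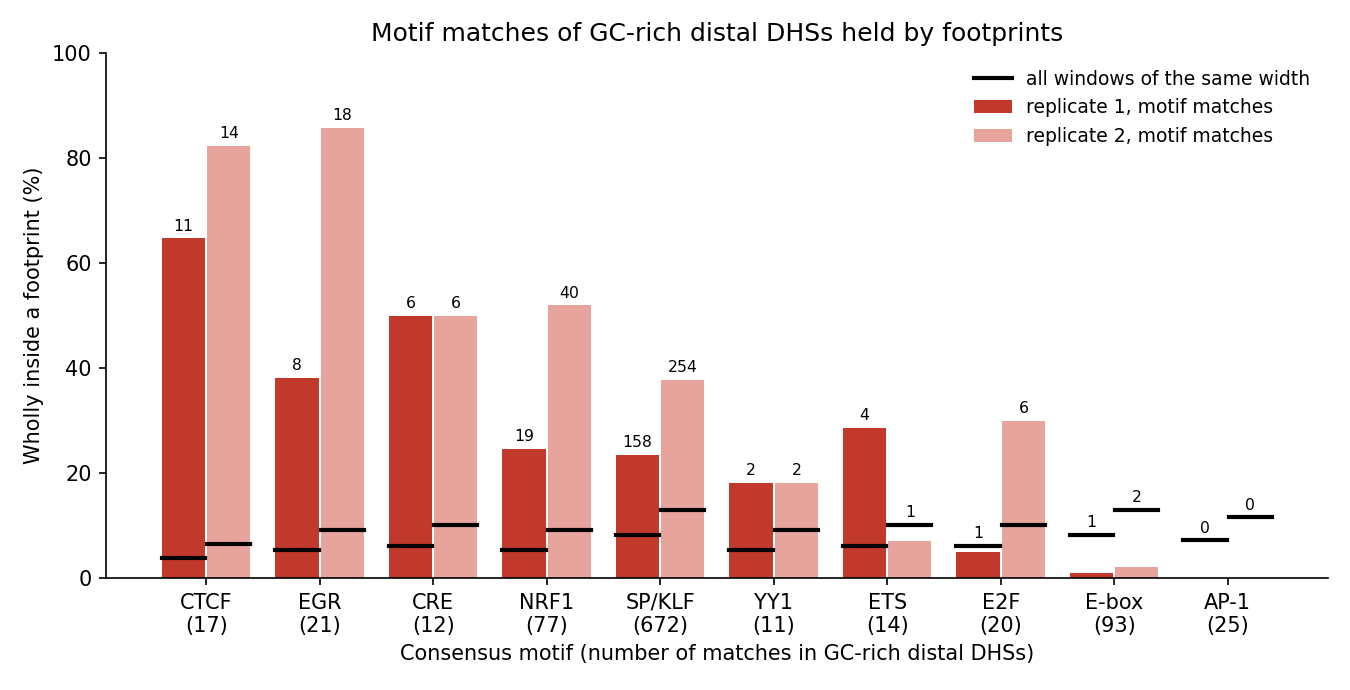
Share of motif matches in GC-rich distal DHSs that lay wholly inside a deposited footprint (y axis, percent), per motif and library, with the number held above each bar and the number of matches below each motif. Black lines mark the share of all windows of the same width in the same DHSs. CTCF, EGR, CRE, NRF1 and SP/KLF bars stand above their lines in both libraries, while those of the E-box, at 1.08% and 2.15%, and AP-1, at 0, lie below.

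Within the members the signal moved with motif content. The 51 with an NRF1 match had a median signal of 1.61 in replicate 1 and 1.43 in replicate 2, against 1.09 in replicate 1 and 0.971 in replicate 2 for those without. The 328 with an SP/KLF match had 1.28 in replicate 1 and 1.05 in replicate 2, against 0.983 in replicate 1 and 0.889 in replicate 2. With 3 or more SP/KLF matches the 89 members had 1.68 in replicate 1 and 1.37 in replicate 2, but the 87 with exactly 2 had 0.979 in replicate 1 and 0.931 in replicate 2, so the level did not follow the number of matches step by step. The 8 with a CRE were the strongest of these sets, at 4.14 in replicate 1 and 3.63 in replicate 2, followed by the 13 with an ETS motif at 2.80 in replicate 1 and 1.80 in replicate 2. The 69 with an E-box were weaker, at 0.940 in replicate 1 and 0.841 in replicate 2, than the 439 without, at 1.19 in replicate 1 and 0.996 in replicate 2. The 20 with an AP-1 motif had 1.33 in replicate 1 and 1.19 in replicate 2, against 1.11 and 0.973 without. The 15 with a CTCF motif had 1.73 and 1.30, against 1.09 and 0.971. Motifs less frequent in members than in other distal DHSs thus did not all go with a weaker signal. Members with an EGR or YY1 motif were also stronger than those without. The length of the CpG-rich stretch made little difference in comparison. Members with a stretch of 500 bp or more had 1.09 in replicate 1 and 0.981 in replicate 2, and shorter ones 1.21 in replicate 1 and 0.976 in replicate 2.

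The libraries ranked members alike and differed by a small common shift. The Pearson correlation of log2 signals across the 508 members was 0.94, against 0.81 across the other distal DHSs, as a description across regions of the same pair of libraries. It was 0.89 across GC-rich CpG-poor distal DHSs and 0.97 across CpG-rich promoter DHSs. The median log2 ratio of replicate 1 to replicate 2 was 0.21 at GC-rich distal DHSs, -0.01 at GC-rich CpG-poor ones, -0.04 at other distal DHSs and 0.26 at CpG-rich promoter DHSs. This ratio rose with GC content from the bin of 45 to 50% upward in both distal and promoter DHSs. After the median of all shared DHSs, 0.05, was subtracted, distal DHSs with a GC content of 45 to 50% had a median of -0.11, those of 60 to 65% 0.03 and those of 70% or more 0.14. Promoter DHSs had -0.06, 0.15 and 0.26 in the same bins. Under a GC content of 40% the medians were -0.01 in distal and -0.07 in promoter DHSs, so the distal ratio fell before it rose. With 1 library from each animal, library and animal cannot be told apart.

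**Figure D5:**
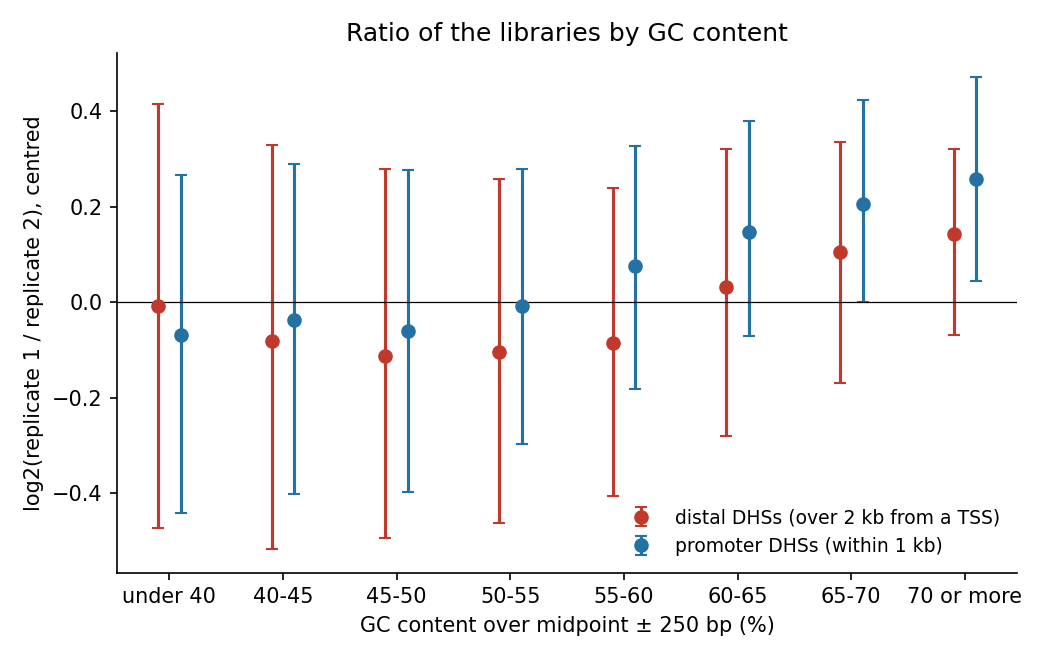
Log2 ratio of the signal in replicate 1 to that in replicate 2, after subtraction of the median of all shared DHSs (y axis), by GC content of the 500 bp around the midpoint (x axis, percent), for distal DHSs (red) and promoter DHSs (blue). Points are medians over DHSs and bars run between the quartiles. Both classes move up at GC contents of 60% and more, to 0.14 and 0.26 in the highest bin.

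The spread of single members was narrow. The SD of the log2 ratio was 0.38 over members, against 0.55 over other distal DHSs. The sets most like the members were also narrow, at 0.42 over GC-rich CpG-poor distal DHSs and 0.33 over CpG-rich promoter DHSs. After centring, 7 of 508 members (1.38%) differed more than 2-fold between the libraries, where 5.24% of all shared DHSs did. Of these, 6 were higher in replicate 1 (1.4% of all shared DHSs) and 1 in replicate 2 (3.83%). The share over 2-fold was 1.56% in GC-rich CpG-poor distal DHSs and 1.16% in CpG-rich promoter DHSs. Signal values were whole multiples of 1 step per library, and the median member stood at 145 steps in replicate 1 and 197 in replicate 2, against 83 in replicate 1 and 146 in replicate 2 for the other distal DHSs. The part of this in the narrower spread was not tested.

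Among members with a mean signal above the members' median, the largest excess in replicate 1 was at the intergenic chr5:112153881-112154100, 2246 bp from the long non-coding RNA gene 1700016B01Rik, with a signal of 2.67 in replicate 1 and 1.13 in replicate 2. A member that consisted wholly of annotated repeat, chr14:53935921-53936240, had 2.71 in replicate 1 and 1.18 in replicate 2, and 91.0% of its 31-base stretches occurred elsewhere in the genome. The tRNA member at n-TPcgg2 followed, and then members 5252 bp from Foxc1, with 1.62 in replicate 1 and 0.816 in replicate 2, and 43221 bp from Ccr1, with 3.43 in replicate 1 and 1.80 in replicate 2. Within the same members, the largest excess in replicate 2 was in an intron of Srrm3, a splicing factor gene of neurons, with 0.886 in replicate 1 and 1.49 in replicate 2. It was followed by a coding-exon member of Disp2, with 1.01 in replicate 1 and 1.69 in replicate 2, and an intergenic one 18851 bp from Wnt11, with 0.940 in replicate 1 and 1.55 in replicate 2. Coding-exon members of Scrt1, a neuronal zinc finger repressor gene, and Rasl10b came next, with 1.35 and 1.32 in replicate 1 and 2.02 and 1.92 in replicate 2. With 1 library per animal a single ratio carries no error.

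GC-rich distal peaks were shared between the libraries about as often as other distal peaks in replicate 1, and more often in replicate 2. Replicate 1 had 590 distal peaks that met the rule, of which 526 (89.2%) were in shared DHSs, against 90.2% of its other distal peaks. Replicate 2 had 689, of which 520 (75.5%) were shared, against 38.9% of its other distal peaks. The whole peak lists held 90059 peaks in replicate 1 and 175597 in replicate 2. The unshared GC-rich peaks were weaker, with medians of 0.524 in replicate 1 and 0.393 in replicate 2 where the shared ones had 1.04 in replicate 1 and 0.978 in replicate 2.

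The limits of the rule cut through a continuous range. The 100 members with a GC content of 60 to 62% had a median signal of 1.46 in replicate 1 and 1.13 in replicate 2, and the 76 DHSs of 58 to 60% just outside had 1.37 in replicate 1 and 1.32 in replicate 2. At the CpG minimum, 67 members just inside had 1.04 in replicate 1 and 0.956 in replicate 2, and 64 DHSs just outside had 1.04 in replicate 1 and 1.06 in replicate 2. At the distance minimum, 49 members within 2.5 kb had 1.00 in replicate 1 and 0.996 in replicate 2, and 76 DHSs between 1.5 and 2 kb from a TSS had 1.01 in replicate 1 and 0.918 in replicate 2.

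Not every member could be tied to 1 place in the genome. In 12 of 508 (2.36%, against 0.770% of the other distal DHSs and 3.11% of the GC-rich CpG-poor ones) over 50% of the 31-base stretches occurred elsewhere. They included chrX:169988521-169989420 and chrX:169997061-169997320 at the end of chromosome X, with signals of 0.647 and 3.94 in replicate 1 and 0.787 and 3.37 in replicate 2. Another, chrY:90744481-90744800, had 2.96 in replicate 1 and 1.84 in replicate 2 although both mice were labelled female, and 86.9% of its stretches were found elsewhere, so its place on chromosome Y cannot be taken from these data. With these 12 and their like left out, the ratio of members to other distal DHSs was 1.54 ± 0.281 (SD, n = 2).

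The tissue label was checked once by promoter DHSs shared by both libraries. All 8 marker genes of cortical neurons had one, as did 3 of 4 of astrocytes, 3 of 4 of the oligodendrocyte lineage and 1 of 3 of microglia, and none of 3 endothelial, 4 liver and 3 blood genes did. In whole tissue, accessibility in fewer cells and weaker accessibility in more cells cannot be told apart.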

How the data were processed

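DNase-seq libraries of 2 mice were used as deposited. The deposited notes derive each library's peaks from that library's alignments to mm10, so the authors did not pool the libraries. The sources used here name no aligner, caller or version. The hybrid animals' reads were placed on the C57BL/6J sequence, and its effect on CAST/EiJ reads was not tested. The deposited peak signal has no stated unit. Within a tolerance of 0.1 step, 100% of signal values were whole multiples of 0.00771 (replicate 1) or 0.00498 (replicate 2), and read depth is unknown. The deposited false discovery rates (q-values) were listed up to 0.05, per the file values, and the deposited footprints carry a constant value, so footprints were used by position. In each library the longer peak list was taken. Peaks of both libraries were merged at 1 bp overlap. A footprint belongs to the DHS that holds its midpoint. Genes came from GENCODE M21 and the second set of starts from RefSeq, both on GRCm38. Intervals are Wilson intervals (SciPy 1.17.1). Interval, composition and motif functions were tested on simulated data, and 8 of 8 gave exact answers.

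The members, the gene lists and the motifs were chosen with earlier results of these data known. Regions were named by a rule: the 10 with the highest mean signal, the 5 with the most footprints, the 5 with the highest CpG ratio, the 5 with the largest ratio in each direction above the median signal, the 2 strongest per gene list, and those in the 5 genes with most members. The tRNA, RefSeq, chromosome X and Y examples and the printed sequences were chosen after their values were seen. Of the 10 strongest, 1 is not reported here. Alternatives were the stricter peak list, 50% mutual overlap, 1 library alone, and other distances, composition minima, windows and start sites.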

Additional observations from a re-analysis of the deposited data

How the results depend on the processing

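The ratio of the median signal of GC-rich distal DHSs to that of other distal DHSs stayed above 1 in every alternative run. With peaks of 1 library alone it was 1.63 for replicate 1 and 1.94 for replicate 2, where the shared DHSs gave 1.75 for replicate 1 and 1.35 for replicate 2, so the order of the libraries turned round. In the other alternatives it moved by less than the spread between libraries. The number of members depends on where the limits are set. It was 788 with a distance over 1 kb and 320 over 5 kb, 270 with a GC content of 65% or more, 303 with a CpG ratio of 0.75 or more, 844 and 277 with windows of 100 and 500 bp on either side of the midpoint, and 923 when start sites of protein-coding transcripts alone were counted. With 1 library alone it was 590 to 689. The share of members in exons, 28.7% as reported, was 33.4% over 1 kb, 22.2% over 5 kb, 35.6% with the higher GC minimum and 34.7% with the higher CpG ratio. It was 23.2% and 36.8% with the 100 bp and 500 bp windows, 34.7% with protein-coding starts, and 31.4% to 31.8% with 1 library alone. The share with a footprint, 94.5% as a mean of the libraries, was 97.6% with the stricter list and 86.3% to 88.2% with 1 library alone. The share of motif matches held by footprints, 28.8% over all motifs, was 44.4% when 1 base inside sufficed. The causes were not tested. The spread of the ratio between libraries kept within its counting interval, and 1 library alone cannot give it. Leaving out regions found elsewhere in the genome was chosen after seeing the data. No paired analysis was possible because there is 1 group. Unknown read depth limits what the lack of a peak or footprint shows.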

Other observations

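The 8-base words most often held, by the summed share of both libraries, by footprints in GC-rich distal DHSs were read out without reference to a motif list, and were chosen after their values were seen. Of 2280 words that occurred 15 times or more, counted together with their reverse complements, CGCATGCG came first. It was held in 9 of 18 cases in replicate 1 and 12 of 18 in replicate 2, against 6.17% of all 8-base windows in replicate 1 and 10.2% in replicate 2, and it is the core of the palindromic NRF1 site. AGGGGGCG followed, held in 31 of 60 cases in replicate 1 and 37 in replicate 2. CCGCCCAC, whose reverse complement GTGGGCGG shares letters with the EGR and SP/KLF motifs, was held in 20 of 45 cases in replicate 1 and 31 in replicate 2. AGAGGGCG was held in 14 of 24 cases in replicate 1 and 13 in replicate 2, and CAGGGGGC in 21 of 40 in both. Farther down, GACGTCAC, which shares 7 bases with the CRE, was held in 10 of 20 cases in both libraries.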
